A study of Mus musculus with 6 samples.

Results

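The identity genes of astrocytes and Bergmann glia were examined in RNA-seq libraries of whole mouse cerebellum, as a set of 30 genes given by symbol, out of 55098 genes in the deposited table. Each of the 30 symbols matched 1 gene. The libraries came from 3 male mice labelled Slc39a14 knock-out (KO, animals 2, 4 and 6) and 3 male mice labelled Slc39a14 wildtype (WT, animals 1, 3 and 5), all at postnatal day 60, with 1 library per animal. Slc39a14 encodes ZIP14, which carries zinc, iron and manganese into cells, and the series uses these mice to model a dystonia with parkinsonism that manganese causes in children. The sources used here do not give the design of the knock-out allele, the strain or any Cre driver, and KO and WT stand for the labels.

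Astrocytes take up glutamate and potassium released by neurons, pass water and ions between blood and tissue, and are joined to one another through gap junctions. The cerebellum holds a specialised form, the Bergmann glia, whose cell bodies lie beside the Purkinje cells and whose fibres cross the molecular layer and wrap the synapses there. Astrocytes are also a main site of manganese accumulation in the brain, and their manganese-dependent enzyme glutamine synthetase converts glutamate to glutamine. The set contains transporters, channels, junction proteins, metabolic enzymes, transcription factors, receptors and secreted proteins by which these cells are recognised. In RNA of a whole tissue, fewer cells of a type and less RNA per cell cannot be told apart.

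Total gene counts per library were 13805997 to 15788135. Slc39a14 (chromosome 14, 70303469 to 70351425, minus strand, GRCm38.p6) had 654, 572 and 640 counts in KO 2, 4 and 6 and 582, 646 and 598 counts in WT 1, 3 and 5 (log2 fold change -0.0035, SE 0.11, edgeR adjusted p = 1.0). The count thus did not check the labels, and every direction given here rests on them. In the test across 17142 genes, 8 genes were called higher in KO and 0 lower, a count that ranged from 0 (without WT 1 or WT 3) to 28 (without WT 5) with single libraries left out.

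Upstream sequence is shown for 4 of the genes. Fabp7 is shown because it was the gene of the set whose KO and WT libraries did not overlap in CPM. Slc1a3, Acsbg1 and Ttyh1 are shown because their promoter windows hold letters of elements that interferon signalling acts through, as does that of Ntsr2, which is not shown, and interferon-induced genes such as Oasl2, Ifit1 and Usp18 were among the genes called higher in KO in this table. The sequences are RefSeq promoter windows in GRCm38.p6, and up to 250 bases before the RefSeq start site, ending before the GENCODE M21 gene start, are printed 5′ to 3′ with motif matches in capitals. They lie at chr10:57784673-57784880, plus strand for Fabp7, chr15:8710808-8711057, minus strand for Slc1a3, chr9:54661886-54662135, minus strand for Acsbg1 and chr7:4119280-4119407, plus strand for Ttyh1.
Fabp7: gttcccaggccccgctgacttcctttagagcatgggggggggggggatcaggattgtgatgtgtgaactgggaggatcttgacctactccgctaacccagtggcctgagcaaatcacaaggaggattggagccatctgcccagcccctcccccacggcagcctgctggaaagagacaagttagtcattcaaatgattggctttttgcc
Slc1a3: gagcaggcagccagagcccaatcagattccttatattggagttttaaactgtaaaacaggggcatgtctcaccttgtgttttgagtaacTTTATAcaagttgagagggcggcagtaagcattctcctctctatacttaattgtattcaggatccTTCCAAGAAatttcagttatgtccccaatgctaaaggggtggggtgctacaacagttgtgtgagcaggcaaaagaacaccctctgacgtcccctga
Acsbg1: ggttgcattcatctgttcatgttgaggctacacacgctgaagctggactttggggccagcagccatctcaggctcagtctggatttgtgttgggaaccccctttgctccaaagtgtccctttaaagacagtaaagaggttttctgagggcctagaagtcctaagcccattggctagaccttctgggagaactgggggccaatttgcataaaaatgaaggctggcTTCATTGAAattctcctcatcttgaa
Ttyh1: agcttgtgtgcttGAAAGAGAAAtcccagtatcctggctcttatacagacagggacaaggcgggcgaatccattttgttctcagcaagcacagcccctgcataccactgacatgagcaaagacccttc
The capitals mark a TATA match and a STAT-type (GAS) match in Slc1a3, a GAS match in Acsbg1 and a match to the interferon-stimulated response element (ISRE) in Ttyh1.

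Motif letters were searched on both strands of the whole window of 300 bases around the start site. Windows were found for 25 of the 30 genes, 32 windows in all, and not for A2m, Aqp4, Clu, Sox9 and Sparcl1. ISRE letters, TTTC repeated after any 2 bases, stood in the windows of 2 genes, Acsbg1 (there after the start site) and Ttyh1. That is 6.25% of the set's windows, against 3.44% of all 32851 windows. GAS letters, TTCNNNGAA, stood in 9.38% of the set's windows (Acsbg1, Ntsr2 and Slc1a3), against 8.30% of all windows. The TATA letters TATAAA stood in 12.5% of the set's windows (Itih3, Ndrg2, Slc1a3 and Slc25a18), against 13.6% of all. The RBPJ letters GTGGGAA, of the Notch pathway, stood in the window of Tril alone, 3.12% against 6.38%. The SOX letters ACAATG stood in 0 of the set's windows and in 12.6% of all. Those of NFI, TTGGC followed after any 5 bases by its reverse complement, stood in 0 of the set's windows and in 0.0365% of all. Of the called genes 5 had a window. Of these, 2 held the ISRE letters, 2 the TATA letters and 0 the GAS, RBPJ, SOX or NFI letters. Matches in the 4 windows shown did not overlap one another. The set's windows had a median GC content of 58.0%, against 52.7% in all windows. These matches describe the letters in the windows, and the log2 fold changes of Acsbg1, Ttyh1, Ntsr2 and Slc1a3 are given with their roles.

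All 30 genes were expressed in every library and passed the low-count filter, and their levels spanned 70.6-fold in FPKM, the count scaled by gene length and library total. Sparcl1, a secreted matrix protein of astrocytes that other brain cells also make, was highest at 586 ± 27.7 FPKM (mean ± SD over 6 libraries). It was followed by Ndrg2 (253 ± 21.5 FPKM), an astrocyte protein of the NDRG family, S100b (199 ± 14.7 FPKM), a calcium-binding protein, and the glutamate transporter Slc1a3 (148 ± 8.39 FPKM), also called GLAST, which is the main one of Bergmann glia. The other glutamate transporter of astrocytes, Slc1a2 or GLT-1, stood at 79.1 ± 11.8 FPKM, below Slc1a3 in each library. The transcription factor Sox9 was lowest at 8.29 ± 1.53 FPKM. Hopx stood at 34.6 ± 6.47, Fabp7 at 34.6 ± 3.15 and the growth factor gene Gdf10 at 24.1 ± 3.37 FPKM. Of the 29 pairs of neighbours in this order, 24 overlapped in their ranges over the 6 libraries. The 5 steps that did not overlap were from Sparcl1 to Ndrg2, from S100b to Slc1a3, from Slc1a3 to Clu, from Mlc1 to Hopx and from A2m to Sox9.

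**Figure D1:**
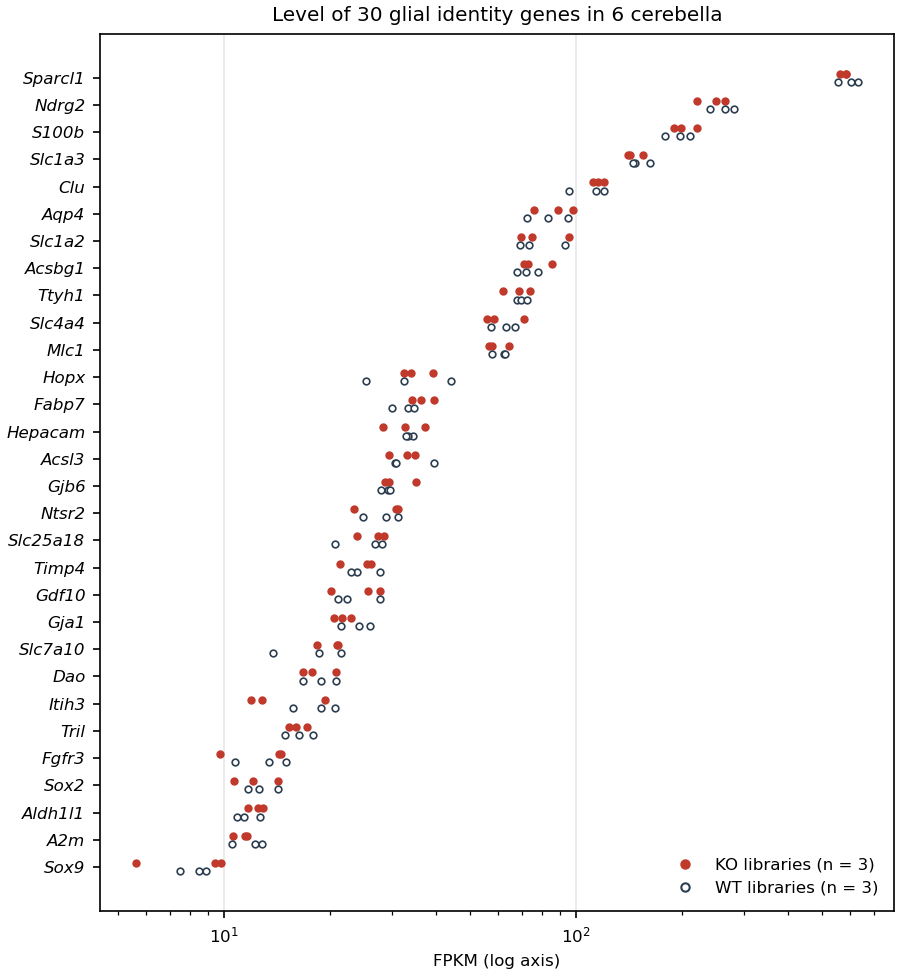
Level of the 30 genes in FPKM on a log axis, 1 row per gene in the order of the mean, with a filled point for each KO library and an open point for each WT library. KO and WT points lie side by side in each row, from Sparcl1 at 586 ± 27.7 down to Sox9 at 8.29 ± 1.53 FPKM.

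No gene of the set was called between KO and WT. The log2 fold changes (KO over WT, on counts) lay between -0.31 for Itih3 and 0.18 for Fabp7, with 14 positive and 16 negative and a median of -0.0026, against -0.0036 over all genes tested. By role, positive values were found for 3 of 5 genes of amino acid handling, 1 of 5 genes of water, ion and volume control, 1 of 2 genes of gap junctions, 3 of 4 genes of folate and lipid metabolism, 2 of 3 genes of transcriptional regulation, 3 of 6 genes of signalling and 1 of 5 genes of secreted proteins. Of the 30 genes, 0 passed an adjusted p of 0.05 in edgeR's quasi-likelihood test, where 0.0467% of all genes tested passed, and 0 had an unadjusted p under 0.05, where 2.75% of all did. That second count changed with the setting, Itih3 having an unadjusted p of 0.00568 without KO 2 and 0.0186 in edgeR with every gene that had a count. Of the 7277 genes at or above the mean CPM of Sox2, the lowest of the set, 0 were called in the main edgeR test. In that test 84 of these 7277 genes had an unadjusted p under 0.05. The authors' deposited table called 38 genes, 0 of the 30 among them, and its log2 fold changes for them differed from the edgeR values by at most 0.00179. By DESeq2 and limma-voom, and with WT 5 and KO 4 both left out, the count was also 0.

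The intervals show which sizes of change remained possible for single genes. For 29 of the 30 genes the 95% interval of the fold change lay inside 1.5-fold in both directions. Over all genes tested 60.5% had an interval inside 1.5-fold, and over the 7277 genes at or above the mean CPM of Sox2, the gene of the set with the lowest CPM, 96.9% did. The exception was Itih3, whose interval reached a fold of 0.605. Standard errors were 0.086 to 0.19 in log2, so with 3 libraries a group differences of a few percent were not detectable. Larger differences could also go uncalled. Calls were adjusted over all genes tested, so an unadjusted p under 0.05 was not enough for a call. The absence of calls in the set therefore does not exclude changes of the sizes inside these intervals. These intervals are for single genes and are not adjusted for the 30.

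**Figure D2:**
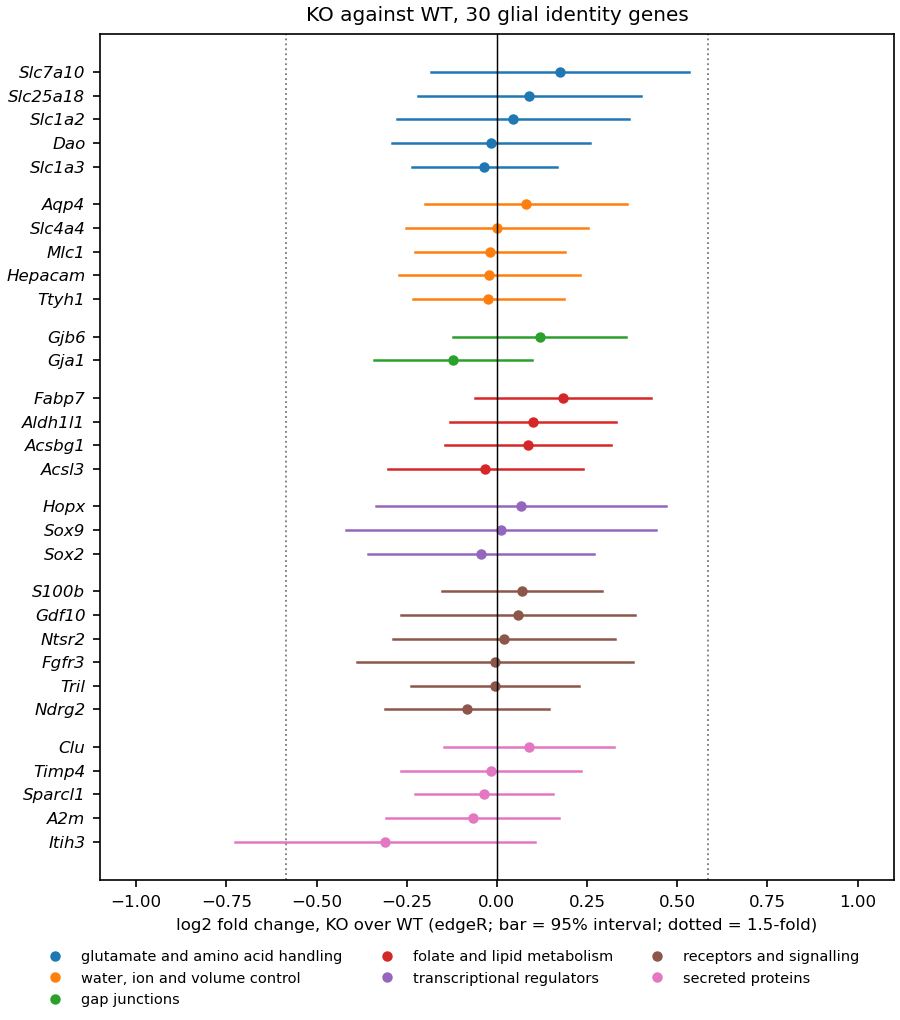
Log2 fold change of each gene, KO over WT (edgeR), with its 95% interval, coloured by role, and dotted lines at 1.5-fold. Every interval spans 0, and the interval of Itih3 alone crosses a dotted line.

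Among the genes of glutamate and amino acid handling no difference was larger than the spread between libraries. Slc1a3 (chromosome 15, 8634124 to 8710764, minus strand) had 1285, 1395 and 1261 CPM (TMM-normalized counts scaled to library size) in KO 2, 4 and 6 and 1312, 1290.2 and 1435 CPM in WT 1, 3 and 5. The 2 groups overlapped, and the highest libraries were WT 5 and KO 4 (log2 fold change -0.035, SE 0.090, 95% interval -0.24 to 0.17, edgeR adjusted p = 1.0). Slc1a2 (chromosome 2, 102658659 to 102790784, plus strand) had 1036, 1321 and 963 CPM in KO and 1009, 948 and 1261 CPM in WT. Here too KO 4 and WT 5 stood above the other 4 libraries (log2 fold change 0.045, SE 0.14, 95% interval -0.28 to 0.37). Slc25a18, the mitochondrial glutamate carrier, averaged 53.5 ± 4.91 CPM in KO mice and 50.2 ± 8.16 CPM in WT mice (SD, n = 3 each; log2 fold change 0.090). Slc7a10, the Asc-1 exchanger of glycine, D-serine and other small amino acids, had 46.5, 40.8 and 46.8 CPM in KO and 47.5, 41.2 and 30.1 CPM in WT, with WT 5 below every other library (log2 fold change 0.18, SE 0.16, 95% interval -0.18 to 0.53). Without WT 5 its log2 fold change was 0.017, and without WT 1 0.33. Dao, the peroxisomal oxidase that degrades D-serine and is abundant in Bergmann glia, averaged 57.3 ± 6.36 CPM in KO mice and 57.9 ± 6.22 CPM in WT mice (SD, n = 3 each; log2 fold change -0.016).

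Genes of water, ion and volume control had log2 fold changes of -0.023 to 0.081, with the smallest median size of the roles (0.021). Aqp4 (chromosome 18, 15389394 to 15403684, minus strand), the water channel of astrocyte endfeet, had 406, 523 and 474 CPM in KO and 387, 441 and 499.7 CPM in WT, and the groups overlapped (log2 fold change 0.081, SE 0.12, 95% interval -0.20 to 0.36). Slc4a4, the sodium bicarbonate cotransporter NBCe1, averaged 705 ± 94.0 CPM in KO mice and 705 ± 51.0 CPM in WT mice (SD, n = 3 each; log2 fold change -0.00033). Mlc1 and Hepacam, which form a complex at astrocyte junctions, were at -0.019 and -0.021 (SE 0.093 and 0.11), and Ttyh1, a membrane protein of the tweety family, at -0.023 (SE 0.094). The signs of all 5 changed in at least 1 other setting.

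The gap junction genes lay on either side of 0. Gja1 (chromosome 10, 56377330 to 56402513, plus strand), which encodes connexin 43, had 235, 248 and 222 CPM in KO and 260.4, 231 and 275 CPM in WT (log2 fold change -0.12, SE 0.098, 95% interval -0.34 to 0.098). Gjb6 (chromosome 14, 57123303 to 57133611, minus strand), which encodes connexin 30, had 99.4, 80.6 and 82.8 CPM in KO and 81.7, 78.1 and 82.2 CPM in WT (log2 fold change 0.12, SE 0.11, 95% interval -0.12 to 0.36). In both genes the groups overlapped, and in Gjb6 KO 2 stood apart above the other 5 libraries. Without KO 2 the log2 fold change of Gjb6 was 0.019.

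Among metabolic genes Fabp7 (chromosome 10, 57784881 to 57788450, plus strand), the brain fatty acid binding protein of Bergmann glia, had the highest log2 fold change of the set, close to that of Slc7a10, which was the higher of them in some settings, such as limma-voom. It had 45.1, 47.7 and 51.8 CPM in KO and 39.3, 43.4 and 44.7 CPM in WT. The lowest KO library lay just above the highest WT library (log2 fold change 0.18, SE 0.11, 95% interval -0.061 to 0.43, edgeR adjusted p = 1.0). It was thus 1 of 30 genes without overlap, 3.33%, where 7.26% of all genes tested had no overlap and 3.58% had none and were higher in KO. Of the 7277 genes at or above the mean CPM of Sox2, 5.02% had no overlap. In FPKM, with another library total, the values of Fabp7 were 34.1, 36.2 and 39.4 in KO and 29.9, 33.2 and 34.5 in WT, and the groups overlapped. Aldh1l1, the formyltetrahydrofolate dehydrogenase used as a marker of all astrocytes, had 61.5, 55.6 and 59.2 CPM in KO and 51.4, 53.9 and 59.2 CPM in WT (log2 fold change 0.10, SE 0.10, 95% interval -0.13 to 0.33). Acsbg1, a fatty acid CoA ligase, averaged 289.9 ± 28.6 CPM in KO mice and 273 ± 19.6 CPM in WT mice (SD, n = 3 each; log2 fold change 0.085, and 0.0020 without KO 6). Acsl3, another such ligase, averaged 149 ± 13.0 CPM in KO mice and 153 ± 22.0 CPM in WT mice (SD, n = 3 each; log2 fold change -0.032).

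The regulators of glial identity had a median standard error of 0.18, against 0.11 over the 30 genes. Sox9 had 24.6, 42.8 and 41.0 CPM in KO and 32.6, 38.4 and 36.4 CPM in WT, and KO 2 was below the other 5 libraries (log2 fold change 0.011, SE 0.19, 95% interval -0.42 to 0.44). Sox2, the stem cell factor that Bergmann glia keep, had 23.2, 30.7 and 26.2 CPM in KO and 25.3, 30.5 and 26.8 CPM in WT (log2 fold change -0.044, SE 0.14). Hopx, a homeodomain protein that does not bind DNA and marks Bergmann glia, had 54.3, 62.7 and 51.8 CPM in KO and 40.4, 51.3 and 69.5 CPM in WT (log2 fold change 0.067, SE 0.18, 95% interval -0.33 to 0.47). Its lowest and its highest library were both WT, WT 1 and WT 5.

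Receptors and signalling proteins were close to 0. Fgfr3, a fibroblast growth factor receptor, had 110.0, 73.6 and 108 CPM in KO and 113, 100.3 and 79.9 CPM in WT, with KO 4 and WT 5 the lowest of their groups (log2 fold change -0.0049, SE 0.17, 95% interval -0.39 to 0.38). The neurotensin receptor Ntsr2 had 101, 76.7 and 103 CPM in KO and 102, 94.3 and 80.2 CPM in WT, with the same pair lowest (log2 fold change 0.019, SE 0.14). Gdf10, a growth factor of the BMP family made by Bergmann glia, had 153, 110.0 and 140.3 CPM in KO and 151, 122 and 114 CPM in WT (log2 fold change 0.059, SE 0.15, 95% interval -0.27 to 0.38), again with KO 4 and WT 5 lowest. Tril, a partner of Toll-like receptors, and S100b were at -0.0064 and 0.070 (SE 0.10 and 0.099). Ndrg2 averaged 875 ± 79.8 CPM in KO mice and 927 ± 70.1 CPM in WT mice (SD, n = 3 each; log2 fold change -0.082).

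Secreted proteins included the gene farthest from 0. Itih3 (chromosome 14, 30908572 to 30923760, minus strand), a heavy chain of the inter-alpha-trypsin inhibitor that binds hyaluronan, had 74.5, 45.7 and 49.2 CPM in KO and 79.0, 71.7 and 59.2 CPM in WT. KO 4 and KO 6 were below all WT libraries, and KO 2 was above WT 3 and WT 5 (log2 fold change -0.31, SE 0.19, 95% interval -0.72 to 0.11, edgeR adjusted p = 1.0). The value rested on single libraries, being -0.56 without KO 2, -0.17 without KO 4 and -0.21 without WT 1. Clu, the extracellular chaperone clusterin, had 405, 417 and 433 CPM in KO and 432, 408 and 339 CPM in WT (log2 fold change 0.089, SE 0.11, 95% interval -0.15 to 0.33). Sparcl1 averaged 1782 ± 39.4 CPM in KO mice and 1827 ± 107 CPM in WT mice (SD, n = 3 each; log2 fold change -0.036). The protease inhibitors Timp4 and A2m were at -0.016 and -0.067 (SE 0.11 and 0.11).

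Summed over the 30 genes, the level was 9309.8, 9958 and 9487 CPM in KO 2, 4 and 6 and 9401, 9365 and 10094 CPM in WT 1, 3 and 5. In each genotype 1 library, KO 4 and WT 5, was the highest, and the groups overlapped. The genes took 0.962% ± 0.0310 of all gene counts in KO mice and 0.954% ± 0.0373 in WT mice (SD, n = 3 each).

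A further 30 genes known from astrocytes and Bergmann glia were set beside these. Over all genes tested, 8372 of 17142 log2 fold changes were positive and the median was -0.0036. Of the further 30 genes 21 had a positive and 9 a negative log2 fold change, with a median of 0.053, and 0 passed the edgeR test over all genes. Aldoc, the glycolytic aldolase C, which Purkinje cells also express, had the highest CPM of them and averaged 1404 ± 128 CPM in KO mice and 1331 ± 99.2 CPM in WT mice (SD, n = 3 each; log2 fold change 0.078). Those with the smallest p were Slc6a11, the GABA transporter GAT-3, and Kcnj10, the potassium channel Kir4.1. Slc6a11 had 131, 78.0 and 113 CPM in KO and 133, 144 and 143 CPM in WT (log2 fold change -0.39, SE 0.16, 95% interval -0.75 to -0.020, edgeR unadjusted p = 0.0408 and adjusted p = 1.0). Kcnj10 had 251, 269.7 and 258 CPM in KO and 334, 286 and 279 CPM in WT (log2 fold change -0.20, SE 0.098, 95% interval -0.42 to 0.015, edgeR unadjusted p = 0.0649 and adjusted p = 1.0). In both every KO library lay below every WT library, as it did in Etv5, a transcription factor downstream of fibroblast growth factor receptors (64.2, 90.3 and 93.6 CPM in KO and 96.7, 96.4 and 98.8 CPM in WT). These were 3 of 30 genes, where 3.68% of all genes tested were lower in KO without overlap. Glul, the glutamine synthetase, averaged 806 ± 115 CPM in KO mice and 743 ± 43.9 CPM in WT mice (log2 fold change 0.12; SD, n = 3 each), and Gfap, the astrocyte intermediate filament, 162 ± 41.4 CPM in KO mice and 149 ± 11.9 CPM in WT mice (log2 fold change 0.12). Glul, Gfap and Etv5 were named after their values were seen.

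Summed markers of other cell types were compared between the genotypes, and their part in the values above was not tested. Summed choroid plexus markers were at 635 to 1898 CPM in KO and 163 to 780.2 CPM in WT, with 10 of 10 positive and a median of 1.35. Summed microglia markers were at 132 to 167 CPM in KO and 104 to 115 CPM in WT, with 8 of 8 positive and a median of 0.50. Summed granule cell markers were at 5870.2 to 6041 CPM in KO and 6327 to 6592 CPM in WT, with 8 of 8 negative and a median of -0.12. Purkinje cell markers were at 6319 to 7492 CPM in KO and 5881 to 6653 CPM in WT (8 of 8 positive, median 0.097) and meningeal fibroblast markers at 803 to 924 CPM in KO and 461 to 817 CPM in WT (8 of 8 positive, median 0.27). Endothelial and mural cell markers were at 366 to 407 CPM in KO and 336 to 398 CPM in WT (6 of 8 positive, median 0.11), and oligodendrocyte markers at 4902 to 5571 CPM in KO and 4458 to 6171 CPM in WT (3 of 8 positive, median -0.063). Oligodendrocyte precursor markers were at 158 to 203 CPM in KO and 157 to 189.6 CPM in WT (4 of 6 positive, median 0.089), and the 5 ependymal markers tested of 6 at 12.6 to 19.1 CPM in KO and 11.1 to 18.3 CPM in WT (3 of 5 positive, median 0.022). No marker of these lists passed over all genes. An unadjusted p under 0.05 in the edgeR test was found for 9 of 10 choroid plexus markers and 4 of 8 microglia markers. No marker of the other lists had one, where 2.75% of all genes tested did. The marker with the highest CPM had a log2 fold change of 1.76 in the choroid plexus list (Ttr), 0.19 in the microglia list (Csf1r), -0.093 in the granule cell list (Cbln3), 0.097 in the Purkinje cell list (Itpr1) and 0.33 in the meningeal list (Ptgds). It was 0.23 for Rgs5 of mural cells, 0.080 for Mbp of oligodendrocytes, 0.12 for Olig1 of their precursors and 0.28 for Foxj1 of ependymal cells. No marker was at 0 in all libraries. The groups did not overlap in the microglia and granule cell sums and overlapped in the other sums. The sums were not tested. Singly, the groups did not overlap for 4 of 8 microglia markers, 1 of 8 granule cell markers and 1 of 6 oligodendrocyte precursor markers. They overlapped for every tested marker of the other lists. Over all genes tested 7.26% had no overlap.

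KO 4 and WT 5 departed from the other libraries of their own genotype, often in the same direction. The pair was singled out with earlier results of these data known. WT 5 was the highest or the lowest of the 3 WT libraries for 27 of the 30 genes, against 20 for WT 1 and 13 for WT 3. Among KO libraries the counts lay closer, with 23 for KO 4, 20 for KO 2 and 17 for KO 6. With 3 libraries, 2 are extremes for each gene, so an even share is 20. The direction depended on the gene. Slc1a2 was 0.40 (log2) above the mean of the other KO libraries in KO 4 and 0.37 above the other WT libraries in WT 5, Hopx 0.24 and 0.61 above, and Aqp4 0.25 and 0.28 above. Fgfr3 had differences of -0.57 in KO 4 and -0.41 in WT 5, Ntsr2 of -0.41 and -0.29, and Gdf10 of -0.41 and -0.26. The difference had the same sign in both libraries for 23 of the 30 genes. It did so for 5954 of the 7277 genes at or above the mean CPM of Sox2. Pearson r was 0.67 across the 30 genes and 0.67 across the 7277 genes (Spearman's rho 0.68 and 0.78). These correlations are across genes of the same libraries, and genes are not independent replicates.

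**Figure D3:**
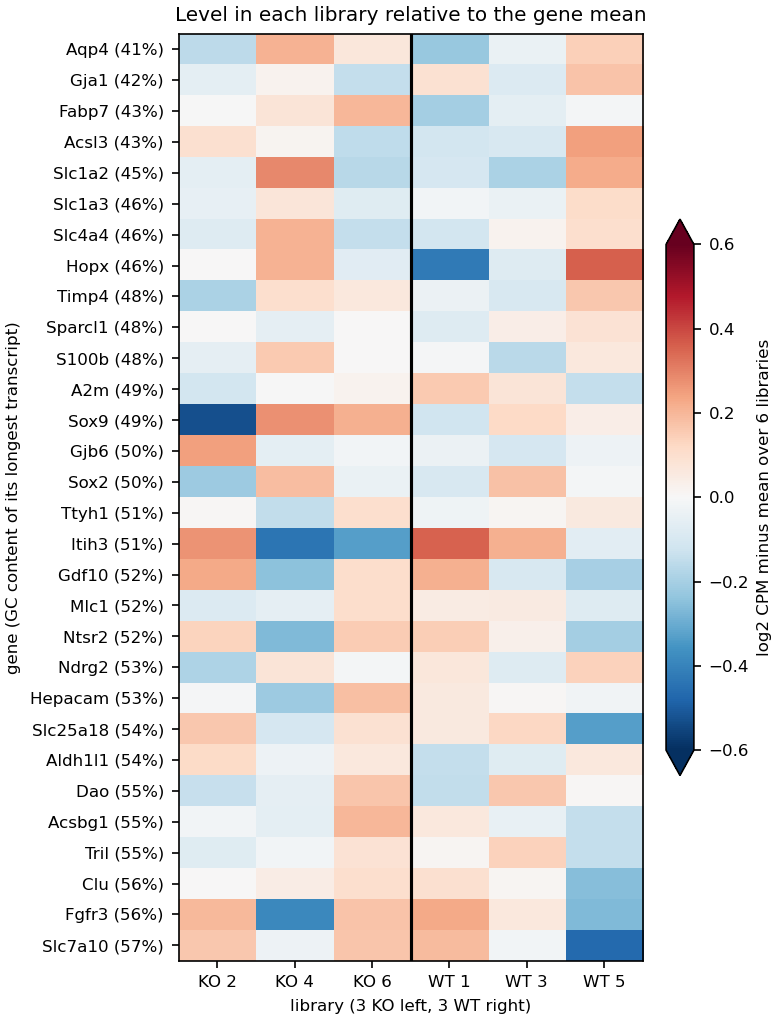
Level of each gene in each library, as log2 CPM minus the mean over the 6 libraries, with KO libraries left and WT libraries right of the line and genes sorted by the GC content of their longest transcript. KO 4 and WT 5 run mostly above the mean (red) at the top, from Aqp4 at 41.4% GC, and mostly below it (blue) toward the bottom, down to Slc7a10 at 57.0%.

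These differences fell with the base composition of the transcript. The GC content of each gene's longest GENCODE M21 transcript was 41.4% for Aqp4, 45.3% for Slc1a2, 45.7% for Slc1a3 and 46.4% for Hopx. It was 52.4% for Ntsr2, 56.4% for Fgfr3 and 57.0% for Slc7a10. Across the 30 genes the difference of KO 4 from the other KO libraries had a Pearson r of -0.57 with GC content, and that of WT 5 from the other WT libraries -0.72 (Spearman's rho -0.62 and -0.73). Across 7262 genes at or above the lowest CPM of the set the values of r were -0.75 and -0.78, of the same sign as in the set. With log2 transcript length r was 0.14 and 0.11 across the 30, and 0.17 and 0.29 across the larger set. Sox9 and Sox2, named here after their values were seen, were 0.43 and 0.32 above the other KO libraries in KO 4 and at 0.040 and -0.052 in WT 5. Ndrg2, at 53.0% GC and also named after its values were seen, was 0.18 above in KO 4 and 0.14 above in WT 5.

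**Figure D4:**
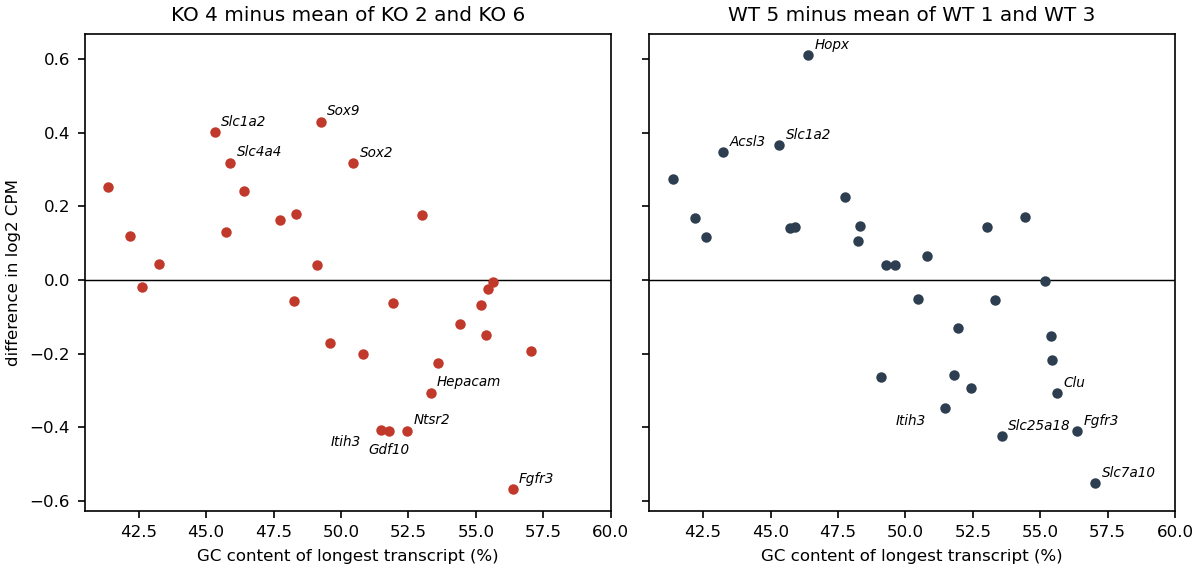
Difference of KO 4 from the mean of the other KO libraries (left) and of WT 5 from the mean of the other WT libraries (right), in log2 CPM, against the GC content of the longest transcript, 1 point per gene, with genes beyond 0.3 named. Both panels fall with GC content, with r of -0.57 and -0.72 across 30 genes.

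A fit that removed each library's trend with GC content, added after the data were seen, gave a smaller median standard error. The standard error did not fall for every gene, being 0.106 for Ndrg2 with the correction and 0.102 without it. The trend was estimated from these same counts, so a smaller spread between libraries follows in part by construction. The cause of the trend was not tested. The median standard error of the 30 genes was 0.085 with the correction and 0.11 without it, and 0 of the 30 were called. The coefficient of variation became smaller in 21 of 30 genes among KO libraries, in 22 among WT libraries and in 17 in both. Its median was 8.58% in KO and 7.49% in WT with the correction, against 9.53% in KO and 9.58% in WT before. Slc1a3 then had 1288, 1320.5 and 1314 CPM in KO 2, 4 and 6 and 1338, 1325 and 1357 CPM in WT 1, 3 and 5, with a coefficient of variation of 1.31% in KO and 1.19% in WT, against 5.42% and 5.80% before. The coefficient became larger for others, such as Fabp7 in KO (14.6% with the correction and 7.05% before), Clu in KO (9.13% and 3.38%) and Aldh1l1 in WT (15.2% and 7.27%). For Ndrg2 it became larger in both groups, 13.7% against 9.12% before in KO and 12.7% against 7.56% before in WT. The groups of Slc1a3 no longer overlapped, KO being lower (log2 fold change -0.036, SE 0.048, edgeR adjusted p = 0.979), nor did those of Gja1 (log2 fold change -0.12, SE 0.061, edgeR adjusted p = 0.926), while those of Fabp7 overlapped (45.7, 43.0 and 56.3 CPM in KO 2, 4 and 6 and 40.9, 45.7 and 40.4 CPM in WT 1, 3 and 5). In this fit 11.0% of all genes tested had groups that did not overlap.

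Of the 30 genes 5 lie on chromosome 14 with Slc39a14. Clu is nearest, 4.32 Mb away, followed by Gjb6 at 13.2 Mb, Ndrg2 at 18.4 Mb, Gdf10 at 36.4 Mb and Itih3 at 39.4 Mb. Their log2 fold changes, KO over WT, were 0.089 for Clu, 0.12 for Gjb6, -0.082 for Ndrg2, 0.059 for Gdf10 and -0.31 for Itih3. Counts of 9 genes are uncertain to the extent that reads came from exons of a gene on the other strand, since the sources used here do not say whether counting kept the strand. The overlapping gene had the higher mean count for 3 of them, Slc25a18 (with Atp6v1e1, 32 shared bases), Timp4 (with Syn2, 90 bases) and Slc7a10 (with Lrp3, 377 bases). The others were Slc1a2, Aldh1l1, Ttyh1, Tril, Fgfr3 and Hopx. On the same strand Acsl3 shares 244 exon bases with Utp14b, and Aldh1l1 shares 105 with a non-coding gene.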

How the data were processed

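TRIZOL extracts of whole cerebellum went to a sequencing company for library preparation, per the labels' protocols. The submitters' processing notes name HISAT2, DESeq2 and GRCm38.p6 without versions. The sources used here do not name the counting program or say whether it kept the strand. The deposited count columns are whole-number counts per gene and library, not normalized. The FPKM columns deposited beside them scale those counts by gene length and a library total, and served to order genes by level. Group means, deposited as a normalized signal, were left out. The authors' own comparison is deposited as log2 fold changes and p-values.

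KO and WT counts were compared in edgeR 4.0.16 under R 4.3.3 (quasi-likelihood F test, TMM, filterByExpr by group, Benjamini-Hochberg over 17142 genes, calls at an adjusted p under 0.05). The step was tested on simulated data. Each standard error is the size of the log2 fold change divided by the square root of F. With 3 libraries a group, 1 count was worth 0.0629 to 0.0733 CPM. DESeq2 1.42.0 and limma 3.58.1 gave alternatives. Each library came from its own animal. The members and lists were chosen with earlier results of these data known, so no p is adjusted over a list. Named genes were the 30 members, Slc39a14, in the further astrocyte list the 2 highest in CPM and the 2 smallest in p, and the highest marker of each other list. A gene that this rule names in the further list is not reported here. GC content came from GENCODE M21 transcripts, for 16913 of the tested genes. Tables were handled with Python 3.11.15 and pandas 2.3.3 and drawn with matplotlib 3.10.9.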

Additional observations from a re-analysis of the deposited data

How the results depend on the processing

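The count of called members was 0 under every alternative run, with an adjusted p of at least 0.926 for each. The count of all genes called was 8 and depended on the setting: 142 with every gene that had a count, 45 by DESeq2 on the same genes, 0 to 28 with single libraries left out (0 without WT 1 or without WT 3, 2 without KO 2, 3 without KO 6, 17 without KO 4, 28 without WT 5), 40 without both WT 5 and KO 4 and 21 with the GC correction, these last 2 settings being added after the data were seen. The cause was not tested. The members' median of -0.0026 ranged from -0.018 to 0.032 with single libraries left out and was 0.035 without both. Members without overlap numbered 1 (Fabp7), 0 with upper quartile scaling (7.07% of all genes tested had no overlap) or with protein-coding genes alone (6.87%), 1 to 4 with single libraries left out (13.5% to 18.5%), 6 without both (where 31.0% of all genes tested had no overlap) and 2 with the GC correction. Fewer libraries give less overlap by construction. Of 480 values of single members under the alternatives 69 had the other sign, in 20 members whose own log2 fold changes were at most 0.090 in size. They were, with DESeq2 size factors Slc4a4 0.00048, with upper quartile scaling Slc4a4 0.0073, Fgfr3 0.0018, Tril 0.00094, with library totals alone Dao 0.0015, Slc4a4 0.018, Fgfr3 0.013, Tril 0.011, Timp4 0.0020, with every gene that had a count Slc4a4 0.0054, Fgfr3 2.9e-05, by DESeq2 Slc4a4 0.00047, by limma-voom Sox9 -0.036, with protein-coding genes alone Slc4a4 0.00011, without WT 5 and KO 4 Dao 0.0054, Ttyh1 0.065, Hepacam 0.059, Acsl3 0.084, Sox9 -0.12, Fgfr3 0.039, Clu -0.0013, Sparcl1 0.021, Timp4 0.012, with the GC correction Tril 0.0024. With single libraries left out the ranges of all 30 members were Slc1a3 -0.076 to 0.016, Slc1a2 -0.098 to 0.18, Slc25a18 -0.035 to 0.18, Slc7a10 0.017 to 0.33, Dao -0.11 to 0.071, Aqp4 -0.0058 to 0.18, Slc4a4 -0.11 to 0.068, Ttyh1 -0.082 to 0.045, Mlc1 -0.078 to 0.018, Hepacam -0.12 to 0.078, Gja1 -0.18 to -0.062, Gjb6 0.019 to 0.18, Aldh1l1 0.058 to 0.16, Acsl3 -0.091 to 0.096, Acsbg1 0.0020 to 0.14, Fabp7 0.13 to 0.23, Sox9 -0.13 to 0.23, Sox2 -0.15 to 0.049, Hopx -0.10 to 0.30, Fgfr3 -0.13 to 0.16, Ntsr2 -0.069 to 0.15, Gdf10 -0.042 to 0.19, Tril -0.073 to 0.069, S100b 0.012 to 0.12, Ndrg2 -0.14 to -0.012, Clu -0.0036 to 0.16, Sparcl1 -0.081 to 0.0024, Timp4 -0.066 to 0.071, A2m -0.15 to -0.0016, Itih3 -0.56 to -0.17. No paired analysis was possible because the animal numbers of KO and WT do not repeat.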
